A study of Mus musculus with 6 samples.

Results

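Imprinted genes are transcribed mainly or wholly from the copy inherited from the mother or from the copy inherited from the father. The 34 genes described here are imprinted genes of the mouse embryo, chosen by symbol, and each symbol matched 1 of the 56359 rows of the deposited table. They fall into 10 clusters and 5 further loci with 1 listed gene each. By general knowledge of mouse imprinting, 10 were classed as expressed from the maternal copy and 19 from the paternal copy. The other 5 (Copg2, Commd1, Ube3a, Gnas and Blcap) were classed as expressed from different copies in different tissues or promoters. Grb10 was counted as maternal, although its expressed copy also differs between tissues, so these classes are approximate. RNA was sequenced from 3 Tmem216-/- and 3 wild type samples, all labelled as embryo of strain C57BL/6 at embryonic day 12. Tmem216 encodes a membrane protein of the transition zone at the base of the primary cilium. The labels leave out how the allele was made, what tissue each embryo gave, and whether different samples came from different embryos. Each p value below therefore reflects sample-to-sample spread only, some of which may be technical.

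Imprinted clusters are controlled by short regions that carry DNA methylation on the copy from 1 parent, set in the germ line and kept through the embryo. Long noncoding RNAs or insulators then decide which neighbouring genes are silent on which copy. Many paternally expressed genes, such as Igf2, promote fetal growth, and many maternally expressed ones, such as Igf2r, Grb10, Cdkn1c and H19, restrain it. The table gives the sum over both parental copies in an inbred strain, so which copy a transcript came from was not measured. In bulk samples, fewer cells of a type and less RNA per cell cannot be told apart.

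Levels are TPM, which scales reads by transcript length and by library total, and sequencing depth is unknown. Differences are log2 fold changes of TPM + 1, Tmem216-/- over wild type, from limma fitted to the 16411 genes that reached 1 TPM in 3 or more samples. A gene passed at a Benjamini-Hochberg adjusted p under 0.05 over all of these genes. Tmem216 itself was 2.25, 0.51 and 1.39 TPM in Tmem216-/- and 31.0, 30.7 and 17.4 TPM in wild type (replicates 1, 2 and 3). It fell by 3.55 on the log2 scale (adjusted p = 0.0266), and this call held without Tmem216-/- replicate 1 but was lost when any other of the 6 samples was left out (adjusted p from 0.0595 to 0.189). It was also lost with a pseudocount of 0.1 (limma adjusted p = 0.0667), with no filter (0.0874) and with a sex covariate (0.0916).

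Levels of tissue markers differed between samples. Heart muscle markers summed to 765 to 1975 TPM in Tmem216-/- and 37.4 to 54.7 TPM in wild type, with all 8 higher in each Tmem216-/- sample and all 8 past the limma threshold. Markers of caudal trunk and hindlimb summed to 11.9 to 40.4 TPM in Tmem216-/- and 68.6 to 148 TPM in wild type, with 3 of 8 lower without overlap. Liver markers summed to 104 to 998 TPM in Tmem216-/- and 203 to 2386 TPM in wild type, and 0 of 8 separated the groups. Skeletal muscle (115 to 226 TPM in Tmem216-/-, 97.6 to 192 TPM in wild type), mesenchyme and cartilage (1139 to 1298 and 1130 to 1360 TPM), erythroid (24975 to 54030 and 34812 to 42438 TPM), neural progenitor (1764 to 2045 and 1561 to 2038 TPM) and endothelial (144 to 173 and 126 to 153 TPM) sums overlapped, Tmem216-/- being given before wild type in each pair. Of 6 endothelial markers 2 (Tek and Pecam1) were higher in Tmem216-/- without overlap, as was 1 of 8 neuron markers. Of 8 trophoblast and placenta markers, 6 were under 1 TPM in every sample, and Prl2c2, Tpbpa and Prl8a9 were listed at 0 throughout. Each genotype held samples of both sex patterns: Xist was above 100 TPM in Tmem216-/- replicates 1 and 3 and wild type replicate 3.

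As a group the imprinted genes were abundant and did not separate the genotypes. They took 1.44%, 1.25% and 1.37% of all TPM in Tmem216-/- replicates 1, 2 and 3, against 1.16%, 1.38% and 1.37% in wild type, so the groups overlapped. The highest levels, with no sample under 617 TPM, were those of H19, Igf2, Nnat, Gnas, Cdkn1c and Mest, which together held 74.8% to 80.8% of the TPM of the 34 genes. At the other end Kcnq1ot1 was between 0.22 and 0.72 TPM and Slc22a18 between 0.51 and 1.41 TPM, and these 2 genes were too low to be tested.

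**Figure D1:**
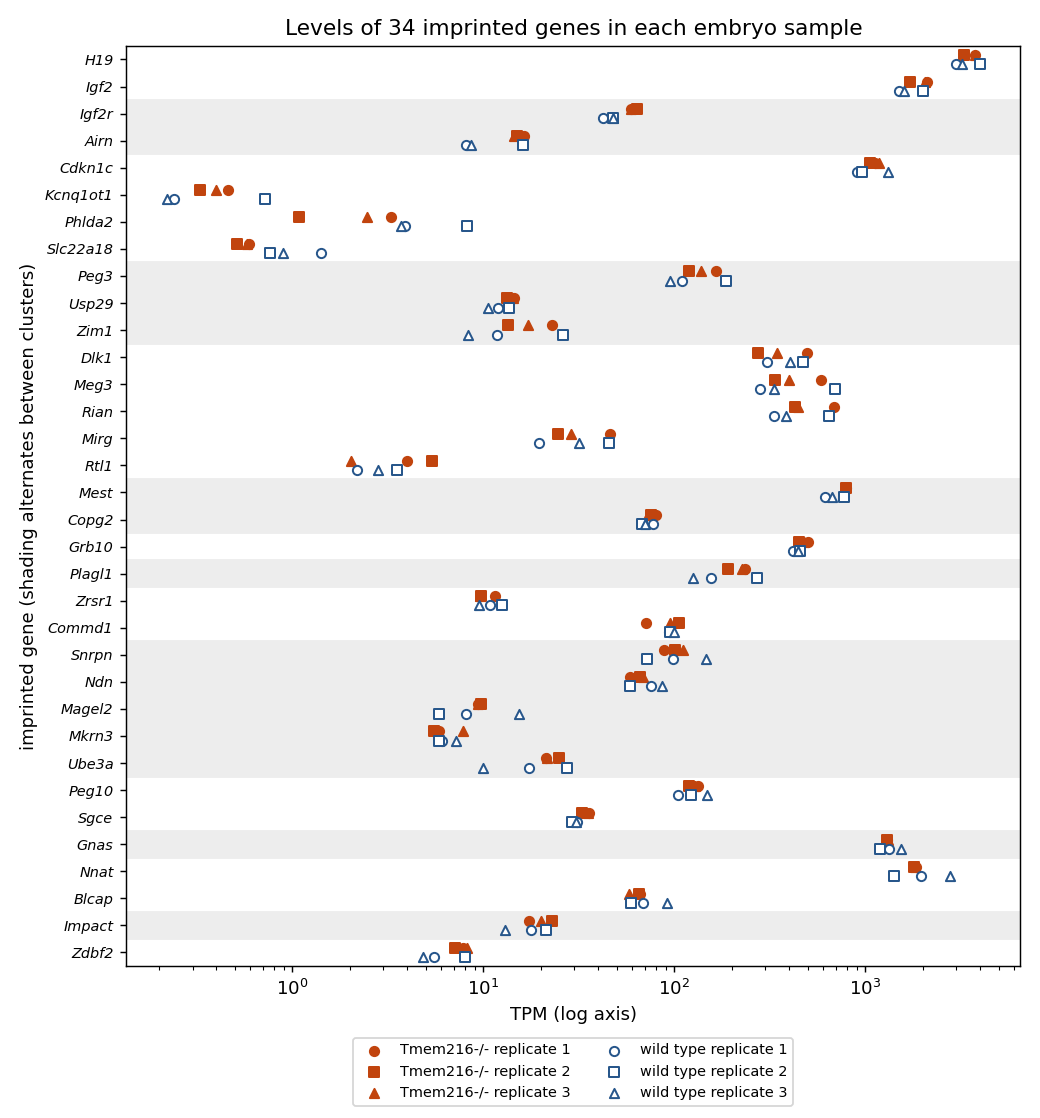
TPM on a log axis for each of the 34 imprinted genes in the 3 Tmem216-/- samples (filled) and the 3 wild type samples (open), grouped by cluster. Levels span from 0.22 TPM for Kcnq1ot1 to 3979 TPM for H19, and the points of the genotypes lie apart for Igf2r, Mest, Sgce, Phlda2 and Slc22a18.

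None of the 32 tested imprinted genes passed limma, against 0.104% of all tested genes (17 of 16411), of which 0.0975% were higher and 0.00609% lower in Tmem216-/-. At an unadjusted p under 0.05 there were 2 of 32, Igf2r (higher) and Phlda2 (lower), against 4.46% of all tested genes. In 3 of the 32, Igf2r, Mest and Sgce, every Tmem216-/- sample was above every wild type sample, against 4.75% of all tested genes. In 1, Phlda2, every Tmem216-/- sample was below every wild type sample, against 4.83%. In either direction this made 4 of 32, against 9.57%. Of the 32, 22 had a log2 fold change above 0, against 48.3% of all tested genes, and the median was 0.10 against -0.0077 over all tested genes. That median depended on single samples, at 0.018 without wild type replicate 1, 0.062 without Tmem216-/- replicate 1, 0.15 without Tmem216-/- replicate 2 and 0.19 without wild type replicate 2. Leaving out wild type replicate 2 also left 10 of the 32 at an unadjusted p under 0.05, against 1898 of 15957 genes, while 0 passed after adjustment. The count was 4 without wild type replicate 3, and 1 without Tmem216-/- replicate 2 or 3, with a replicate block, with a sex covariate or with a filter at 5 TPM. Phlda2 missed an unadjusted p of 0.05 without Tmem216-/- replicate 2, Tmem216-/- replicate 3 or wild type replicate 2, with no filter, with the block and with the sex covariate.

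No class by expressed copy held a gene that passed. Grb10 is counted here as maternally expressed, and no summary was made with it among the tissue-dependent genes. Of the maternally expressed genes 8 of 9 tested had a log2 fold change above 0, with a median of 0.10, which was 0.0097 without wild type replicate 1, 0.063 without Tmem216-/- replicate 1, 0.25 without Tmem216-/- replicate 2 and 0.35 without wild type replicate 2. Of the paternally expressed genes 12 of 18 tested were above 0, with a median of 0.17, which was 0.098 without wild type replicate 1, 0.11 without Tmem216-/- replicate 1 and 0.11 without Tmem216-/- replicate 2. The 5 genes with tissue-dependent expression had 2 above 0 and a median of -0.038, which was 0.038 without Tmem216-/- replicate 1, 0.051 without wild type replicate 3 and -0.12 without wild type replicate 2. The 5 tested noncoding RNAs (H19, Airn, Meg3, Rian and Mirg) had a median of 0.097 and the 27 tested coding genes 0.10.

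**Figure D2:**
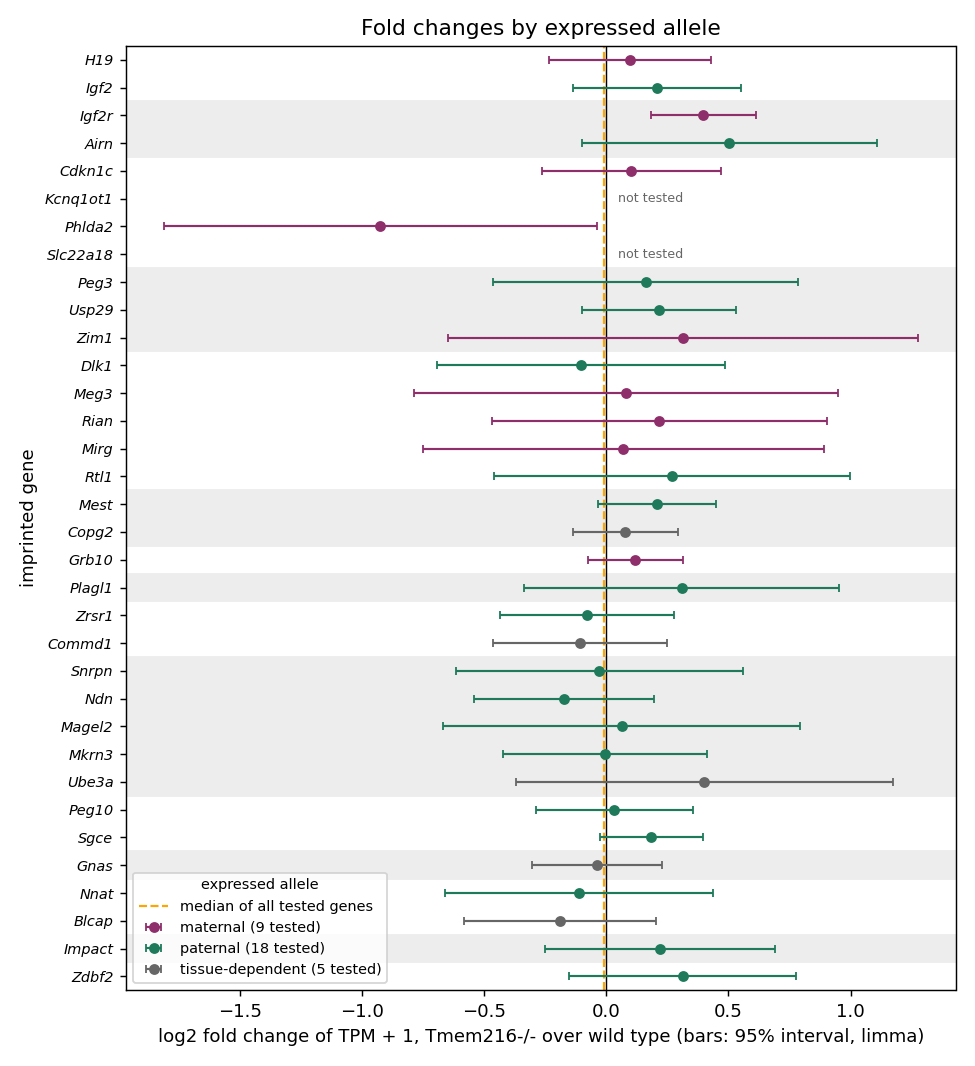
Log2 fold change of TPM + 1, Tmem216-/- over wild type, for the 32 tested imprinted genes with the 95% interval from limma, coloured by expressed copy. The dashed line is the median of all tested genes (-0.0077), and only the intervals of Igf2r (above 0) and Phlda2 (below 0) leave out 0.

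The difference with the smallest p lay at the Igf2r and Airn locus. Igf2r encodes the receptor that takes up IGF2 and carries it to lysosomes, and Airn is the long RNA that starts inside Igf2r, runs against it and silences it on the paternal copy. Igf2r (ENSMUSG00000023830, chromosome 17, 12682406 to 12769664, minus strand, mm10) was 59.0, 63.6 and 59.5 TPM in Tmem216-/- and 42.2, 47.7 and 47.7 TPM in wild type. The lowest Tmem216-/- sample was above the highest wild type sample. The means were 60.7 ± 2.53 TPM in Tmem216-/- and 45.9 ± 3.18 TPM in wild type (SD, n = 3 each), a log2 fold change of 0.40 with SE 0.09 and a limma adjusted p of 0.492. An exact permutation test (two-sided) gave p = 0.1, below which 3 against 3 samples cannot go. With each sample left out the log2 fold change stayed between 0.34 and 0.43. The heart muscle and caudal trunk marker sums separated the genotypes too. The endothelial markers Tek (10.3 ± 0.75 TPM in Tmem216-/- and 6.58 ± 0.51 TPM in wild type, log2 fold change 0.58) and Pecam1 (0.23) were also higher without overlap, with limma adjusted p values of 0.496 and 0.983. The other endothelial markers, Emcn, Cdh5, Kdr and Cldn5, overlapped, as did the endothelial sums. The neuron marker Map2 (155 ± 4.38 TPM in Tmem216-/- and 125 ± 9.69 TPM in wild type, log2 fold change 0.31) was higher without overlap too (limma adjusted p = 0.760). It was the only 1 of 8 neuron markers without overlap. Of the 8, 4 had a log2 fold change below 0, and the neuron sums overlapped. The part of these markers in the Igf2r difference was not tested.

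Airn (ENSMUSG00000078247, chromosome 17, 12741311 to 12860136, plus strand) was 16.2, 15 and 14.6 TPM in Tmem216-/- and 8.09, 16.2 and 8.62 TPM in wild type. Wild type replicate 2 lay among the Tmem216-/- samples, and the other wild type samples were lower. The log2 fold change was 0.50 (95% interval -0.10 to 1.11), and without wild type replicate 2 it was 0.80 (limma adjusted p = 0.175, against 0.9999 at the other end of the range with a sample left out). Igf2r and Airn share 28354 bases of genome on opposite strands, and the sources used here do not say whether counting used strand, so reads of the shared stretch cannot be assigned to either gene with certainty. The table gives Airn a length of 1375 bases over a span of 118826, so its value rests on a small spliced part of the transcript.

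The promoters of Igf2r and Phlda2, the genes at an unadjusted p under 0.05, and of Airn differ in CpG content, CpG being the dinucleotide that carries DNA methylation. The 250 bases before each start are shown from RefSeq on GRCm38.p6, with CpG in capitals. The RefSeq start of Phlda2 lies 626 bases from the annotated gene start.
Igf2r promoter, chr17:12769707-12769956, minus strand: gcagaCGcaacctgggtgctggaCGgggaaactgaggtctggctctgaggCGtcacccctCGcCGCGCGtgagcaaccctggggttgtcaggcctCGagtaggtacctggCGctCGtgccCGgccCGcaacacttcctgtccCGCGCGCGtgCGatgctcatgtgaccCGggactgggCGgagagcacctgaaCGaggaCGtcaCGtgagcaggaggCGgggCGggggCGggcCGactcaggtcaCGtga
Airn promoter, chr17:12741061-12741310, plus strand: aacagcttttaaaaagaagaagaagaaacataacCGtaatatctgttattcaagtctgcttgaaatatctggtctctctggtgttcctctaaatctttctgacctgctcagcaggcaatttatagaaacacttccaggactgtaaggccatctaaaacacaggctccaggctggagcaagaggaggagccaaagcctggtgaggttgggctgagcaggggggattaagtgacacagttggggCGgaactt
Phlda2 promoter, chr7:143502525-143502774, minus strand: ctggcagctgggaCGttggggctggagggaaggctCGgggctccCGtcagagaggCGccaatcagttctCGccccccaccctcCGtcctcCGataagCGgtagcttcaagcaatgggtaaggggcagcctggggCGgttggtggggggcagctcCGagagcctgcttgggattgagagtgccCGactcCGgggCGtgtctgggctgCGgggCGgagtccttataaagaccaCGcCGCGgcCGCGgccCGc
The Igf2r window (300 bases, 250 before to 50 after the start) holds 34 CpG with an observed over expected ratio of 0.91. The Airn window holds 3 (ratio 0.19), and that of Phlda2 holds 26 (ratio 0.82). CpG beyond these windows, such as further downstream of each start, were not counted. Of the 34 genes, 28 had a promoter found in the RefSeq table, with 43 starts among them. None was found for H19, Cdkn1c, Rtl1, Peg10 and Sgce, and Impact was left out of this search. A ratio above 0.6 was found for 53.5% of these 43 starts, against 35.8% of all 32851 starts in the table, and the median CpG number was 15 against 7.

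In the Kcnq1ot1 cluster of chromosome 7 no gene passed, and the genotypes did not overlap for Phlda2 and Slc22a18, both low in level. Phlda2, which encodes a pleckstrin homology protein that limits growth of the placenta (ENSMUSG00000010760, 143501545 to 143503150, minus strand), was 3.30, 1.08 and 2.47 TPM in Tmem216-/- and 3.90, 8.24 and 3.69 TPM in wild type. The groups did not overlap, but the closest samples were 3.30 TPM in Tmem216-/- and 3.69 TPM in wild type. The means were 2.28 ± 1.12 and 5.28 ± 2.57 TPM in Tmem216-/- and wild type (SD, n = 3 each), a log2 fold change of -0.92 with SE 0.37 and a limma adjusted p of 0.983. With each sample left out it ran from -1.15 to -0.61, and it was -1.21 with a pseudocount of 0.1 and -0.48 with a pseudocount of 5. Slc22a18, a transporter gene of the organic cation family, was 0.59, 0.51 and 0.58 TPM in Tmem216-/- and 1.41, 0.76 and 0.89 TPM in wild type. Its groups did not overlap either, with p = 0.1 in the exact permutation test, and with no filter on low values its log2 fold change was -0.36 (limma adjusted p = 0.925). The marker sums that also separated the genotypes were those of heart muscle, higher in Tmem216-/-, and of caudal trunk and hindlimb, lower, and their part in these differences was not tested.

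Cdkn1c, which encodes the cyclin-dependent kinase inhibitor p57, was 1128, 1065 and 1182 TPM in Tmem216-/- and 907, 957 and 1320 TPM in wild type. The Tmem216-/- samples all lay within the wild type range, and the log2 fold change was 0.10 (95% interval -0.26 to 0.47). Kcnq1ot1, the long RNA that silences this cluster on the paternal copy, was 0.46, 0.33 and 0.40 TPM in Tmem216-/- and 0.24, 0.72 and 0.22 TPM in wild type. It is averaged over 93092 bases in the table, the whole unspliced span, and it lies opposite to Kcnq1.

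H19 and Igf2 were the most abundant pair. H19, an untranslated RNA transcribed from the maternal copy (ENSMUSG00000000031, chromosome 7, 142575529 to 142578143), was 3766, 3279 and 3756 TPM in Tmem216-/- and 2977, 3979 and 3201 TPM in wild type. Igf2, the fetal growth factor transcribed from the paternal copy (ENSMUSG00000048583, chromosome 7, 142650766 to 142666816), was 2106, 1713 and 2050 TPM in Tmem216-/- and 1509, 2007 and 1587 TPM in wild type. Both genes were highest in Tmem216-/- replicate 1 and in wild type replicate 2 within their genotype, and the genotypes overlapped for each. The log2 fold changes were 0.10 (95% interval -0.24 to 0.43) for H19 and 0.21 (-0.14 to 0.55) for Igf2. Leaving out wild type replicate 1 gave 0.0097 for H19 and 0.13 for Igf2, and leaving out wild type replicate 2 gave 0.22 for H19 and 0.33 for Igf2. Igf2 shares 16048 bases with the protein-coding gene Gm49394 on the same strand. How reads were assigned between them was not tested, so the Igf2 values are uncertain.

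The ratio of H19 to Igf2, which use shared enhancers on opposite parental copies, varied less than either gene. In TPM it was 1.79, 1.91 and 1.83 in Tmem216-/- and 1.97, 1.98 and 2.02 in wild type. On the log2 scale it was 0.88 ± 0.05 in Tmem216-/- and 0.99 ± 0.02 in wild type (SD, n = 3 each), and the groups did not overlap. The closest samples were 0.94 in Tmem216-/- replicate 2 and 0.98 in wild type replicate 1. For levels of single genes, 9.57% of all tested genes did not overlap in either direction. No such share was counted for ratios. The other 4 neighbouring pairs expressed from opposite copies did overlap. Meg3 over Dlk1 was 0.24, 0.29 and 0.20 in Tmem216-/- and -0.11, 0.56 and -0.27 in wild type on the log2 scale. Zim1 over Peg3 was -2.86, -3.15 and -3.02 in Tmem216-/- and -3.23, -2.84 and -3.51 in wild type. Igf2r over Airn was 1.86, 2.08 and 2.03 in Tmem216-/- and 2.38, 1.56 and 2.47 in wild type. Cdkn1c over Kcnq1ot1 was 11.3, 11.7 and 11.5 in Tmem216-/- and 11.9, 10.4 and 12.6 in wild type. In these 4 pairs wild type replicate 2 stood on the other side of the Tmem216-/- mean from both other wild type samples. No test was made of these ratios, which were chosen with earlier results of the data known. The H19 to Igf2 ratio carries the uncertainty of the Igf2 values.

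**Figure D3:**
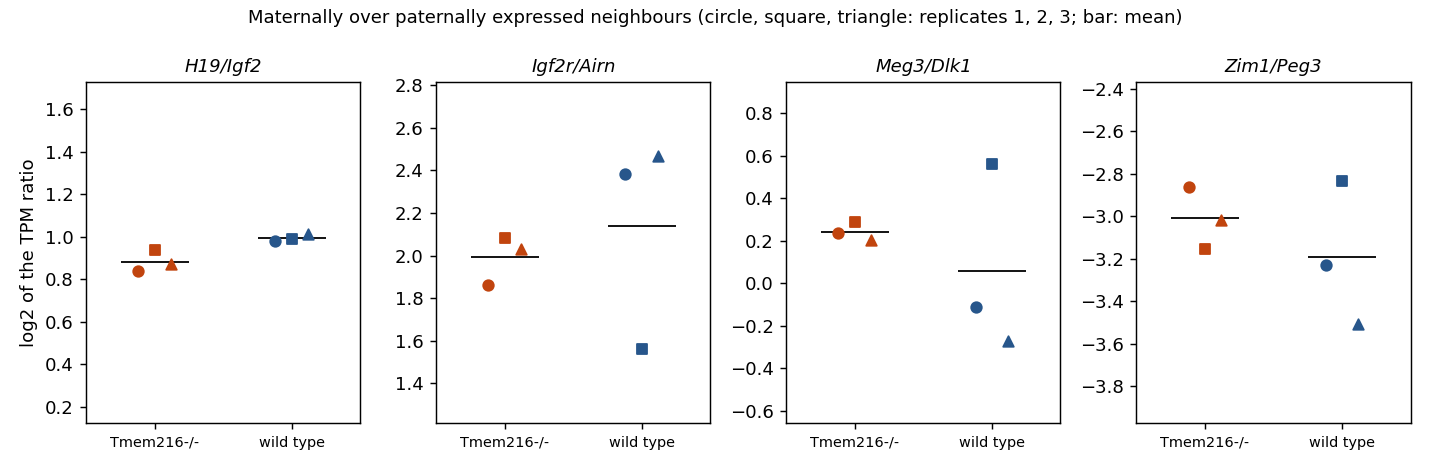
Log2 ratio of TPM of the maternally over the paternally expressed gene for 4 neighbouring pairs in each sample (Tmem216-/- left, wild type right; bars are means of 3 samples; each axis spans 1.6 units). H19/Igf2 lies between 0.84 and 0.94 in Tmem216-/- and between 0.98 and 1.01 in wild type, while the wild type samples of the other pairs spread on both sides of the Tmem216-/- samples.

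In the Dlk1 and Meg3 cluster of chromosome 12 the differences within a genotype were larger than those between genotypes. Meg3, a long noncoding RNA (ENSMUSG00000021268, 109541001 to 109571726, plus strand), was 584, 335 and 397 TPM in Tmem216-/- and 283, 693 and 334 TPM in wild type. Rian, the host of C/D box small nucleolar RNAs, was 682, 427 and 445 TPM in Tmem216-/- and 334, 646 and 383 TPM in wild type. Mirg, a microRNA host, was 46.1, 24.6 and 28.8 TPM in Tmem216-/- and 19.5, 45.3 and 31.7 TPM in wild type. These 3 maternally expressed RNAs were all highest in Tmem216-/- replicate 1 and in wild type replicate 2 within their genotype, and lowest in Tmem216-/- replicate 2 and wild type replicate 1. The skeletal muscle marker sums had the same extremes, at 226, 115 and 200 TPM in Tmem216-/- and 97.6, 192 and 166 TPM in wild type. Of the 8 single markers only Acta1, Myh3 and Myh8 had them. Among the wild type samples Myod1, Myog and Chrna1 were highest in replicate 3, and Tnnt3 was lowest there. Myf5 was highest in replicate 3 among the Tmem216-/- samples. No other marker sum had these extremes in both genotypes, and the part of muscle in the order of the RNAs was not tested.

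Dlk1, the paternally expressed transmembrane protein of the Notch ligand family, followed the same order at its extremes, with 495, 274 and 345 TPM in Tmem216-/- and 305, 470 and 403 TPM in wild type. Its log2 fold change was -0.10 (95% interval -0.69 to 0.49), and those of Meg3, Rian and Mirg were 0.08, 0.22 and 0.07. That of Rian was 0.0025 without Tmem216-/- replicate 1 and 0.50 without wild type replicate 2. The interval of Meg3 ran from -0.79 to 0.95, so these samples do not tell a change within that range from 0. Rtl1, a retrotransposon-derived protein gene that lies between Meg3 and Rian on the minus strand, was 3.99, 5.37 and 2.03 TPM in Tmem216-/- and 2.18, 3.55 and 2.80 TPM in wild type. Its order differed, with Tmem216-/- replicate 2 the highest.

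Several of these transcripts are sources of microRNAs, which the table does not measure. By position, 45 mature microRNAs of the RefSeq table lie on the same strand within 8 of the genes, 26 of them in Mirg, 6 in Rian and 3 in Meg3, and 11 lie opposite to Rtl1. Impact was left out of this search. The set below, with the seed (bases 2 to 8) in capitals, gives both arms of the H19 microRNA, the 5p arm from Mest, 1 of those opposite to Rtl1, and the pair from Mirg that share a seed.
mmu-miR-675-5p: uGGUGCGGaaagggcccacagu
mmu-miR-675-3p: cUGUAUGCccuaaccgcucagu
mmu-miR-335-5p: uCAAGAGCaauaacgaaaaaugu
mmu-miR-127-3p: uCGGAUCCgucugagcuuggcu
mmu-miR-453: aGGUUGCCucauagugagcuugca
mmu-miR-496a-5p: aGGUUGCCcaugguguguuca
The pair from Mirg, miR-453 and miR-496a-5p, were the only ones among those in or opposite to the genes searched that had the same 7-base seed.

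In the Peg3 cluster at the proximal end of chromosome 7 wild type replicates again spread more than the genotypes. Peg3, a zinc finger transcriptional repressor, was 166, 119 and 139 TPM in Tmem216-/- and 110, 187 and 94.7 TPM in wild type. Zim1, the maternally expressed zinc finger gene beside it, was 22.8, 13.4 and 17.1 TPM in Tmem216-/- and 11.7, 26.3 and 8.33 TPM in wild type. Usp29, of the ubiquitin-specific peptidase family, was 14.5, 13.4 and 14.3 TPM in Tmem216-/- and 11.9, 13.6 and 10.5 TPM in wild type. All 3 were highest in wild type replicate 2 and lowest in wild type replicate 3 among the wild type samples. Their log2 fold changes were 0.16 for Peg3, 0.31 for Zim1 and 0.22 for Usp29, and each interval included 0.

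Peg3 and Usp29 start 164 bases apart and run in opposite directions, so their 300-base promoter windows share 263 bases. The Peg3 promoter is shown with that of Meg3, each as the 250 bases before the start on GRCm38.p6, since wild type replicate 2 was the highest of the 6 samples for both genes. CpG is in capitals.
Peg3 promoter, chr7:6730420-6730669, minus strand: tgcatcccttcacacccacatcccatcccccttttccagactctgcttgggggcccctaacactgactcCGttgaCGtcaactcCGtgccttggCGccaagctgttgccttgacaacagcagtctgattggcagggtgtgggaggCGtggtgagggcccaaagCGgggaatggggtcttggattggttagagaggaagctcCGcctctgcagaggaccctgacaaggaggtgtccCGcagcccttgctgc
Meg3 promoter, chr12:109540746-109540995, plus strand: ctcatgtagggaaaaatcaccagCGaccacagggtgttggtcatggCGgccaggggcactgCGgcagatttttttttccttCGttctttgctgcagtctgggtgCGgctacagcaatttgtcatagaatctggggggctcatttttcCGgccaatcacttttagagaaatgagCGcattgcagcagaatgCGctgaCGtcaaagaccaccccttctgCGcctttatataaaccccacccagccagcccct
Each of these windows holds 13 CpG over its 300 bases, with observed over expected ratios of 0.46 for Peg3 and 0.60 for Meg3.

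Plagl1, a zinc finger transcription factor gene of chromosome 10 that is known in the mouse to act on other imprinted genes, was 235, 192 and 226 TPM in Tmem216-/- and 156, 271 and 126 TPM in wild type. Its log2 fold change was 0.31 (95% interval -0.33 to 0.95), and wild type replicate 2 was again the highest sample. The log2 fold change was 0.62 without that sample and 0.075 without wild type replicate 3. Grb10, an adaptor that restrains insulin and IGF receptor signalling, was steadier, at 502, 447 and 480 TPM in Tmem216-/- and 417, 455 and 442 TPM in wild type. Its log2 fold change was 0.12 (95% interval -0.08 to 0.31), the narrowest interval among the 32.

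Mest and Sgce were the other genes whose genotypes did not overlap. Mest, an alpha/beta hydrolase gene of mesodermal tissue (ENSMUSG00000051855, chromosome 6, 30723547 to 30748465, plus strand), was 796, 794 and 780 TPM in Tmem216-/- and 617, 772 and 672 TPM in wild type. The lowest Tmem216-/- sample was 780 TPM against 772 TPM in wild type replicate 2, a gap much smaller than the spread of the wild type samples. The means were 790 ± 8.66 TPM in Tmem216-/- and 687 ± 78.7 TPM in wild type (SD, n = 3 each), with a log2 fold change of 0.21, SE 0.10 and a limma adjusted p of 0.983. Copg2, a coatomer subunit gene that overlaps the end of Mest by 912 bases on the other strand, was 76.0 ± 4.06 TPM in Tmem216-/- and 72.0 ± 5.11 TPM in wild type (log2 fold change 0.08).

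Sgce, which encodes epsilon-sarcoglycan (ENSMUSG00000004631, chromosome 6, 4674350 to 4747207, minus strand), was 35.7, 32.9 and 35.3 TPM in Tmem216-/- and 31.0, 29.3 and 30.6 TPM in wild type. The log2 fold change was 0.19 with SE 0.09 and a limma adjusted p of 0.983, and the exact two-sided permutation p was 0.1. Peg10, a retrotransposon-derived gene that starts beside Sgce on the plus strand, was 133, 119 and 128 TPM in Tmem216-/- and 104, 123 and 147 TPM in wild type. Its log2 fold change was 0.03 (95% interval -0.29 to 0.36), and the genotypes overlapped.

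The genes of the Snrpn to Ube3a cluster on chromosome 7, of the Nnat and Blcap locus and of Gnas showed another order of the wild type samples. Nnat, a small proteolipid gene of neural tissue (ENSMUSG00000067786, chromosome 2, 157560078 to 157562522), was 1843, 1807 and 1810 TPM in Tmem216-/- and 1950, 1412 and 2761 TPM in wild type. Snrpn, which encodes an Sm protein of neurons, was 87.8, 100 and 111 TPM in Tmem216-/- and 98.6, 72.2 and 146 TPM in wild type. Magel2, of the MAGE family, was 9.42, 9.77 and 9.39 TPM in Tmem216-/- and 8.13, 5.88 and 15.3 TPM in wild type. In each of these genes wild type replicate 3 was highest and wild type replicate 2 lowest, and the Tmem216-/- samples lay between them.

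Necdin, encoded by Ndn, a MAGE protein of postmitotic neurons, was 58.3, 65.9 and 68.7 TPM in Tmem216-/- and 75.1, 58.6 and 86.4 TPM in wild type. Gnas, the gene of the stimulatory G protein alpha subunit, was 1303, 1301 and 1321 TPM in Tmem216-/- and 1326, 1188 and 1538 TPM in wild type, summed over all its promoters. Blcap, which holds Nnat within its span on the other strand, was 66.1, 65.2 and 58.1 TPM in Tmem216-/- and 68.5, 59.3 and 91.7 TPM in wild type. The log2 fold changes were -0.11 for Nnat, -0.03 for Snrpn, 0.06 for Magel2, -0.17 for Ndn, -0.04 for Gnas and -0.19 for Blcap. Without wild type replicate 3 they were -0.047 for Ndn and -0.016 for Blcap, and without wild type replicate 2 they were -0.32 and -0.33. Mkrn3, a makorin RING finger gene, was 5.89, 5.51 and 7.85 TPM in Tmem216-/- and 6.08, 5.88 and 7.23 TPM in wild type (-0.0047).

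Of the 8 genes in these loci, 7 were highest in wild type replicate 3 and lowest in wild type replicate 2 among the wild type samples. Of all tested genes 45.6% were highest in wild type replicate 3 and 40.4% lowest in wild type replicate 2, each counted separately. The loci are described together because of this order, so the 7 of 8 follows from that choice. The share of all tested genes with both extremes was not counted. The summed level of 8 neuron markers had that order too, at 1333, 1577 and 1435 TPM in Tmem216-/- and 1457, 1050 and 2014 TPM in wild type, and the same wild type order was seen in the sums for neural progenitors (1770, 1561 and 2038 TPM), mesenchyme and cartilage (1204, 1130 and 1360 TPM) and endothelium (138, 126 and 153 TPM). The heart, skeletal muscle, liver and erythroid sums were instead highest in wild type replicate 2. Of the single neuron markers, Tubb3, Stmn2, Dcx, Elavl3 and Snap25 had the wild type order of the neuron sum. Among the wild type samples Map2 and Elavl4 were highest in replicate 1, and Nefl was lowest there. The part of any of these in the order of the genes was not tested. Ube3a, an E3 ubiquitin ligase gene transcribed from the maternal copy in neurons and from both elsewhere, was the exception. It was 21.4, 25.02 and 21.6 TPM in Tmem216-/- and 17.3, 27.4 and 10 TPM in wild type, with wild type replicate 2 highest. Snurf, a reading frame on the same transcripts as Snrpn, was 7.92, 8.30 and 0 TPM in Tmem216-/- and 75.1, 0 and 0 TPM in wild type, which is uneven within each genotype. Snurf shares 9601 bases with Snrpn on the same strand, and how reads were assigned between them was not tested, so the Snrpn values are uncertain.

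Over all 32 tested genes, 19 (59.4%) were highest in wild type replicate 2 among the wild type samples, against 36.5% of all tested genes. A further 11 (34.4%) were highest in wild type replicate 3, against 45.6%, and 2 in wild type replicate 1. Among the Tmem216-/- samples 20 (62.5%) were highest in replicate 1, against 41.4% of all tested genes. Genes of a cluster share enhancers and control regions and are not independent, so these are counts and not tests.

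**Figure D4:**
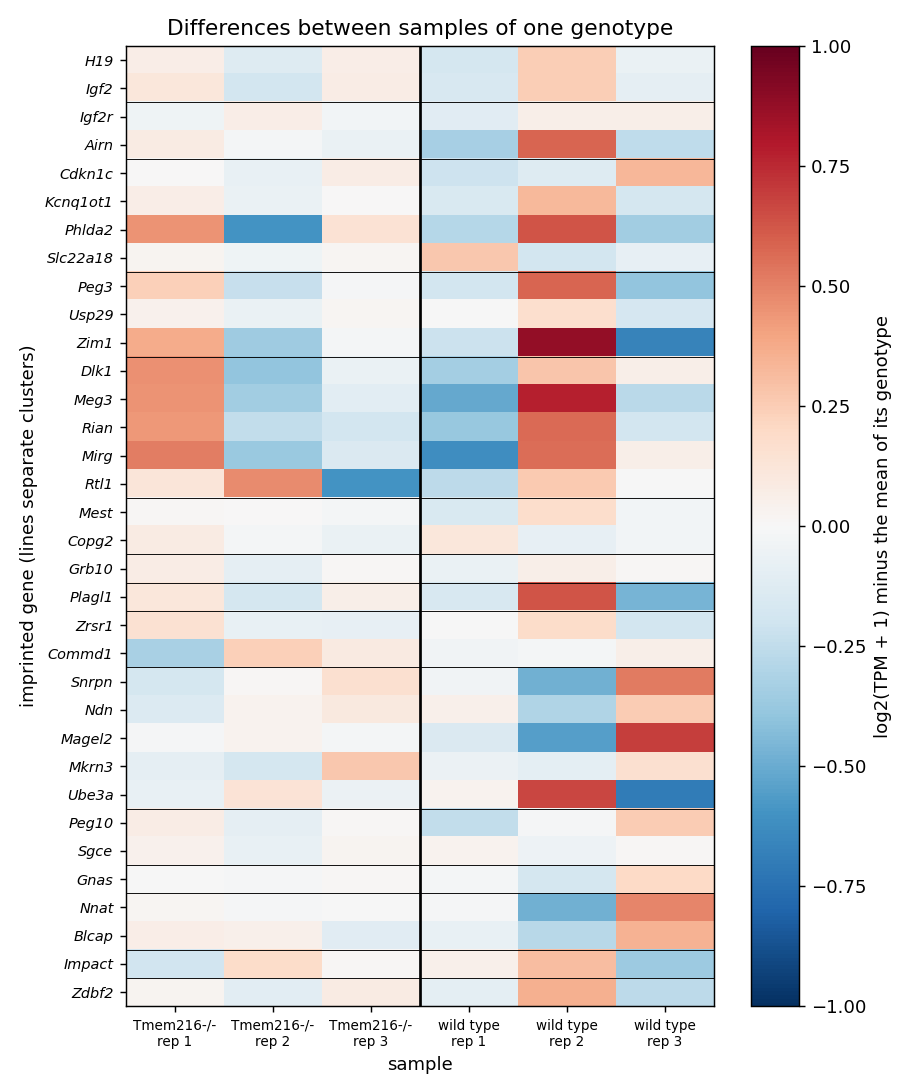
Difference of log2(TPM + 1) from the mean of its own genotype for each imprinted gene (rows, by cluster) in each sample (columns, Tmem216-/- left, wild type right); red is above and blue below that mean. Meg3, Rian, Mirg, Zim1, Peg3 and Plagl1 are red in wild type replicate 2, while Nnat, Snrpn, Ndn, Magel2 and Blcap are red in wild type replicate 3.

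The remaining 4 genes did not pass, and their genotypes overlapped. Zrsr1, a splicing factor gene derived by retrotransposition that lies within Commd1 on the other strand, was 10.3 ± 1.07 TPM in Tmem216-/- and 10.98 ± 1.52 TPM in wild type (SD, n = 3 each; log2 fold change -0.08). Commd1, a copper metabolism gene, was 70.9, 105 and 95.2 TPM in Tmem216-/- and 93.7, 94.6 and 100 TPM in wild type (-0.11), with Tmem216-/- replicate 1 below all other samples. Commd1 shares 85955 bases with Gm28048 on the same strand, and how reads were assigned between them was not tested. Impact, an inhibitor of the stress kinase GCN2, was 17.4, 22.8 and 20.1 TPM in Tmem216-/- and 17.7, 21.4 and 13.02 TPM in wild type (0.22). Zdbf2, a zinc finger gene of chromosome 1, was 7.83, 7.08 and 8.19 TPM in Tmem216-/- and 5.53, 7.97 and 4.84 TPM in wild type (0.31), so wild type replicate 2 again lay within the Tmem216-/- range.

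Further imprinted genes, the factors that keep imprints and the IGF pathway held no gene that passed limma either. Of 43 other imprinted genes 30 were tested, 0 passed and 0 had an unadjusted p under 0.05, with 19 above 0 and a median log2 fold change of 0.07. The smallest p values were those of Inpp5f, a phosphoinositide phosphatase gene (45.0 ± 1.13 TPM in Tmem216-/- and 40.2 ± 3.57 TPM in wild type, 0.16), Cobl, an actin nucleator gene (5.70 ± 0.57 and 4.64 ± 0.60 TPM, 0.25), and Slc38a4, an amino acid transporter gene (31.1 ± 0.95 and 25.5 ± 8.84 TPM, 0.33). In 3 of the 30 every Tmem216-/- sample was above every wild type sample, and in 0 below, against 4.75% and 4.83% of all tested genes.

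Of 25 imprint maintenance genes 22 were tested and 0 passed, with 0 at an unadjusted p under 0.05, 11 above 0 and a median of -0.0037. Dnmt1, the maintenance DNA methyltransferase, was 104 ± 3.09 TPM in Tmem216-/- and 119 ± 12.3 TPM in wild type (-0.19). Trim28, the corepressor that zinc finger proteins bring to imprints, was 508 ± 17.2 TPM in Tmem216-/- and 584 ± 65.5 TPM in wild type (-0.19). Dnmt3b, a de novo methyltransferase, was 7.98 ± 0.54 TPM in Tmem216-/- and 9.31 ± 0.61 TPM in wild type (-0.20). In 2 of the 22, Trim28 and Dnmt3b, every Tmem216-/- sample was below every wild type sample, and in 0 above, against 4.83% and 4.75% of all tested genes. For Trim28 the closest samples were 525.96 TPM in Tmem216-/- replicate 1 and 527.33 TPM in wild type replicate 2.

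Of 17 IGF pathway genes 16 were tested and 0 passed, with 11 above 0 and a median of 0.098. Igf2bp3, which encodes a protein that binds Igf2 mRNA, was 61.5, 66.7 and 66.5 TPM in Tmem216-/- and 56.3, 57 and 56.8 TPM in wild type. Its groups did not overlap (log2 fold change 0.19, SE 0.08, limma adjusted p = 0.983), and it was the only gene of the 16 without overlap and the only one at an unadjusted p under 0.05, against 9.57% and 4.46% of all tested genes. Igfbp5, an IGF binding protein gene, was 274 ± 36.1 TPM in Tmem216-/- and 234 ± 35.0 TPM in wild type (0.23), and Igf2bp2 was 99.9 ± 5.10 TPM in Tmem216-/- and 90.0 ± 8.88 TPM in wild type (0.15).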

How the data were processed

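The submitters' processing notes name CASAVA 1.8, HISAT2, StringTie, RSEM and the build mm10, without a role for each; other versions are not given in the sources used here. The authors deposited TPM per gene for 6 samples, rounded to 2 decimals, and depth is unknown. A further 2 numeric columns, equal to the group means to within 3.3e-06, were not used. Where identifiers shared a symbol, that with the highest mean was taken.

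Genes reaching 1 TPM in 3 or more samples were kept (16411), values were log2(TPM + 1), and Tmem216-/- was set against wild type in limma (lmFit, eBayes with trend), two-sided, with Benjamini-Hochberg adjustment. SD is the sample SD, SE the moderated one. Exact permutation p values take all 20 splits. Positions are from GENCODE M21 (GRCm38), sequences from RefSeq (GRCm38.p6). The class of each gene by expressed copy is general knowledge and approximate, with Grb10 counted as maternal. The genes named are all 34 members, Tmem216 and the 3 smallest p values of each further list. Snurf and Kcnq1 (overlaps), Xist and the named cell type markers fall outside this rule and were chosen after their values were seen. Gm49394 and Gm28048 also fall outside it and are named only for their overlaps. The members and lists were chosen with earlier results of these data known. The comparison was repeated with a pseudocount of 0.1 or 5, a replicate block, a sex covariate, median-of-ratios scaling, eBayes without trend, the filter removed or raised to 5 TPM, and each sample left out. Fits were tested on simulated data. Versions were Python 3.11.15, pandas 2.3.3, R 4.3.3 and limma 3.58.1.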

Additional observations from a re-analysis of the deposited data

How the results depend on the processing

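Depth is unknown and 3 samples per genotype limit each comparison. No imprinted gene passed under any of the 14 alternatives (lowest adjusted p = 0.175), and the count over all genes was 17, against 0 with no filter (1207 at an unadjusted p under 0.05) and 0 to 20 with each sample left out (5 without Tmem216-/- replicate 2, 4 without Tmem216-/- replicate 3, 1 without wild type replicate 3 and 0 without wild type replicate 1, where 505 genes had an unadjusted p under 0.05). The median log2 fold change of the imprinted genes ran from 0.018 to 0.19 with each sample left out, that of the maternally expressed genes from 0.0097 to 0.35, that of the paternally expressed genes from 0.098 to 0.23 and that of the tissue-dependent ones from -0.12 to 0.051. Of 446 alternative values of single imprinted genes 27 changed sign, in 14 genes, and the cause was not tested. With the sex covariate these were Cdkn1c (-8.4e-05), Mirg (-0.036), Magel2 (-0.10) and Peg10 (-0.052), and with median-of-ratios scaling Mkrn3 (0.0018). With each sample left out the log2 fold change ran from -0.037 to 0.45 for Peg3, -0.019 to 0.75 for Zim1, -0.33 to 0.095 for Dlk1, -0.17 to 0.47 for Meg3, -0.24 to 0.35 for Mirg, -0.17 to 0.015 for Zrsr1, -0.22 to 0.057 for Commd1, -0.27 to 0.23 for Snrpn, -0.21 to 0.41 for Magel2, -0.14 to 0.083 for Mkrn3, -0.088 to 0.16 for Peg10, -0.13 to 0.060 for Gnas and -0.35 to 0.13 for Nnat. Without a change of sign it ran from 0.00035 to 0.27 for Cdkn1c, 0.032 to 0.57 for Rtl1, 0.051 to 0.73 for Ube3a, 0.037 to 0.37 for Impact, 0.18 to 0.49 for Zdbf2, 0.13 to 0.30 for Usp29, 0.13 to 0.29 for Mest and 0.037 to 0.13 for Copg2. With the replicate block 0 imprinted genes passed and 25 of all genes did. Same-numbered samples did not pair: correlations of their deviations were 0.016, -0.093 and 0.10, and Tmem216-/- replicate 1 correlated more with wild type replicate 2 (0.14).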

Other observations

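The imprinted genes varied less among Tmem216-/- samples than among wild type samples. The median SD of log2(TPM + 1) over the 32 tested genes was 0.12 in Tmem216-/- and 0.30 in wild type, and 26 of them (81.2%) had the smaller SD in Tmem216-/-. Over all tested genes the medians were 0.12 in Tmem216-/- and 0.24 in wild type, with the smaller SD in Tmem216-/- for 72.9%. Magel2 (SD 0.21 TPM in Tmem216-/- and 4.91 TPM in wild type), Gnas (10.7 and 177 TPM) and Nnat (19.9 and 679 TPM) were among the genes with this pattern, and Rtl1 (1.68 and 0.69 TPM) and Commd1 (17.6 and 3.54 TPM) were among those with the opposite one. Correlations of log2 values between samples ran from 0.934, between wild type replicates 2 and 3, to 0.975, between Tmem216-/- replicates 2 and 3. What sets the wild type samples apart was not tested.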
